A study of Rattus norvegicus with 44 samples.

Results

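The 42 genes listed as complement and coagulation proteins were read across dose in rat liver and kidney. They comprise activators, central components and inhibitors of the complement cascade, the fibrinogen chains, clotting factors, anticoagulants and the proteins that form or hold back plasmin. A gene was measured through the probe sets whose platform annotation names that gene alone, and where it had several, the brightest on average in an organ stood for it there and the brightest over both organs in comparisons between them. By this rule 35 of the 42 were found, among 14217 genes named on the array. C2, C4a, Cfb, F7, F11, F13b and Kng1 were not analysed here. Of the 35 genes, 30 have 1 probe set and 5 have more (Mbl2, Masp1, Masp2, Fga and Fgb). The list of genes itself uses no measured value.

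The study gave crude MCHM, an industrial mixture whose main constituent is 4-methylcyclohexanemethanol, to male Hsd:Sprague Dawley rats aged 6 to 8 weeks at assignment. It was given in corn oil by gavage (5 mL/kg) on 5 days in a row, at 0, 0.1, 1, 10, 100, 300 or 500 mg/kg, and all rats, the vehicle group included, received corn oil. Animals were killed on the day after the last dose, and total RNA from each sample was hybridised to an Affymetrix Rat Genome 230 2.0 array. Liver had 27 arrays, 3 of them at 0.1 mg/kg and 4 in every other group. Kidney had 17, of which vehicle and the 300 and 500 mg/kg groups had 3 each and the remaining doses 2. The labels call the arrays of a group biological replicates, and the p-values measure the spread between them. Arrays with batch effects had been removed by the submitters before deposit. The question the design puts is at which dose transcripts in each organ depart from vehicle.

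Most of these proteins are made by hepatocytes and secreted into plasma, where they circulate as inactive precursors. The complement cascade is started by the C1 complex or by mannose-binding lectins, converges on C3, and ends in a membrane pore built from C5 to C9. Coagulation runs through a chain of proteases to thrombin, which turns fibrinogen into fibrin, and plasmin dissolves the fibrin again. Hepatocyte transcription of such genes is known to depend on factors that include HNF1, HNF4 and the C/EBP family.

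Promoters are shown for the 3 fibrinogen chains, which lie beside each other on the chromosome and include the largest difference between the organs, and for Serpinf2, the only one of the 35 called in a dose comparison. Each runs from 250 bases before to 50 bases after the annotated start, 5′ to 3′ on the gene's strand, from RefSeq on assembly GRCr8. Fga lies at chr2:170671919-170672218 on the plus strand, Fgb at chr2:170700826-170701125 on the minus strand, Fgg at chr2:170652833-170653132 on the plus strand and Serpinf2 at chr10:60778733-60779032 on the minus strand. Capitals mark matches, on either strand, to the HNF1 core GTTAAT or to the C/EBP pattern TTGCNNAA.
Fga: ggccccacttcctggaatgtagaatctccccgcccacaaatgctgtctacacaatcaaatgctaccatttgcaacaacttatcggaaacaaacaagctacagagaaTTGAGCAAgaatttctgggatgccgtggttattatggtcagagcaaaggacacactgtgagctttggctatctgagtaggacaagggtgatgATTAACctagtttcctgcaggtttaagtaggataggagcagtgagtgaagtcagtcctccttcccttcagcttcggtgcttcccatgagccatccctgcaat
Fgb: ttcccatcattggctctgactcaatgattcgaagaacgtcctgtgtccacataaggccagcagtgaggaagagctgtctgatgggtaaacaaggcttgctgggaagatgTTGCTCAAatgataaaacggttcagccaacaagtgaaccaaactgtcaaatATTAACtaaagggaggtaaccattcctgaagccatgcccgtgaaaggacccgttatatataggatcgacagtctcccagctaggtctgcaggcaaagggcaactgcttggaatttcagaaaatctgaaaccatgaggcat
Fgg: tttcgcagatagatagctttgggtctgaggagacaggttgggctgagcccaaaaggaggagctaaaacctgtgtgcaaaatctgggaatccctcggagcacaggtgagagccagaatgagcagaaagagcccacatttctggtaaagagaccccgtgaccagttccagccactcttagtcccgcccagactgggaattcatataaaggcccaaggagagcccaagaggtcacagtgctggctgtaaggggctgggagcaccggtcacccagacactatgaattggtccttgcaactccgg
Serpinf2: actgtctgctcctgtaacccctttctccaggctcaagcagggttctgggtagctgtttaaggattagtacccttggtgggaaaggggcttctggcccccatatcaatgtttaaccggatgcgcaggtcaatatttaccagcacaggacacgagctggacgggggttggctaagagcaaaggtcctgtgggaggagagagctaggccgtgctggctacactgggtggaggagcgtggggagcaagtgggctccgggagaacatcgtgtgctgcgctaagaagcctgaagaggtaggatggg

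Fga held a GTTAAT match 52 bases before the start and a TTGCNNAA match 144 bases before it. Fgb held them 90 and 141 bases before the start. Fgg and Serpinf2 held neither in this window. Windows were at hand for 27 of the 35 genes; C1s, Masp2, C8g, C9, Serping1, Serpind1, Hrg and Cpb2 had none in the table used. GTTAAT was present in 9 of the 27 (33.3%), against 7.37% of 27457 rat promoters of the same length. TTGCNNAA was present in 11 of the 27 (40.7%), against 10.5% of all. The HNF4 pattern CAAAGTCCA was present in 0 of the 27 and in 0.375% of all. The patterns do not overlap each other in the printed windows. A match is a stretch of letters, not evidence of binding, and no test was made of these shares.

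Values are RMA log2 signals, so a difference of 1 is a 2-fold change; they reach 14.85 at most in the whole table, and changes of probe sets near that ceiling or near the floor of 1.8 are compressed. Levels of different probe sets are not compared, because probes differ in how brightly they bind. Arrays of an organ correlated with each other at 0.989 to 0.994 in liver and 0.984 to 0.996 in kidney. The hepatocyte marker Alb ranged from 14.82 to 14.85 in liver, and the mean of 8 proximal tubule markers was 11.03 to 11.62 in kidney and at most 5.99 in vehicle liver. Vehicle replicate 2 of both organs went against the label male, with Xist, the X-inactivation transcript of females, at 8.25 in liver and 6.95 in kidney, while the other arrays were at 2.79 to 3.27 and 2.68 to 3.02. The array of kidney replicate 1 at 1 mg/kg had high signals of several hepatocyte genes, as given below. Comparisons with vehicle or over dose within an organ are also given without them.

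All 35 genes were higher in vehicle liver than in vehicle kidney. Each passed the threshold of an adjusted p of 0.05 (limma, Benjamini-Hochberg over 31042 probe sets, 4 against 3 arrays), where 61.4% of all probe sets passed and 32.9% passed with the higher level in liver. The differences ran from 1.25 to 10.49 on the log2 scale, with a median of 6.88. Masp2, a lectin-route protease, differed by 6.68 in the probe set used here, while the probe set that stands for it in kidney was at 5.82 in vehicle liver and 5.72 in vehicle kidney (adjusted p = 0.585). Leaving out any 1 of the 7 vehicle arrays left 35 of 35 called. The organ fit has no animal block, since the labels do not say whether liver and kidney arrays come from the same rats. In bulk tissue, fewer cells of a type and less RNA per cell cannot be told apart.

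The largest organ difference was in Fgg, the fibrinogen gamma chain. It was 13.98, 14.07, 14.06 and 14.05 in the 4 vehicle livers and 3.43, 3.63 and 3.60 in the 3 vehicle kidneys, a difference of 10.49 ± 0.42 (SE). The alpha and beta chains differed by 7.71 ± 0.23 and 9.72 ± 0.30. These SEs rest on a spread shared by the groups of both organs, which includes a kidney array at 1 mg/kg where Fgg was 7.74. The vehicle SDs of Fgg alone were 0.04 in liver and 0.11 in kidney. The liver values of all 3 chains lay close to the top of the scale, so these differences are compressed. Vtn, which encodes vitronectin, an inhibitor of the terminal pore, differed by 9.75, and C4bpa, the alpha chain of the C4b-binding protein, by 9.40.

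At the other end stood Serpinf2, the plasmin inhibitor alpha-2-antiplasmin. Its vehicle values were 11.28, 11.25, 11.20 and 11.17 in liver and 9.83, 9.76 and 10.32 in kidney, a difference of 1.25 ± 0.09 (SE), or 2.38-fold. C5, the precursor of the first pore component, differed by 2.40, Serping1, the C1 inhibitor, by 2.52, Proc, the precursor of the anticoagulant protease protein C, by 3.15, and Pros1, its cofactor protein S, by 3.34. The liver and kidney ranges did not meet for any of these 5.

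**Figure D1:**
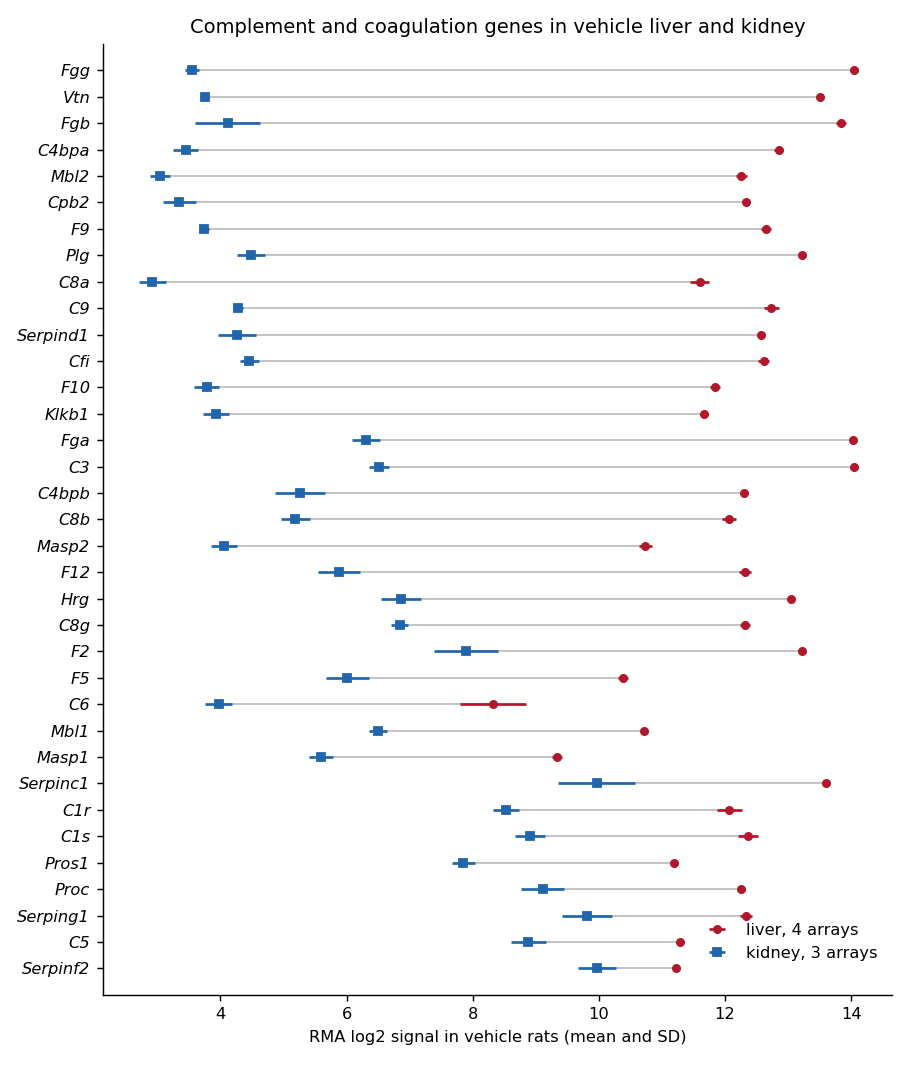
Each row is a gene, the x axis is the RMA log2 signal in vehicle rats, circles are means of 4 livers, squares are means of 3 kidneys and bars are SD. Every circle lies to the right of its square, by 10.49 for Fgg at the top and by 1.25 for Serpinf2 at the bottom.

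Within a dose group the liver signals were tight. The SD within groups had a median of 0.067 over the 35 genes, against 0.177 over all probe sets, and 33 of the 35 lay below that value. Values near the ceiling are compressed, and the part of this in the small SD was not tested. The exceptions were C6, a component of the membrane pore, with an SD of 0.41, and Klkb1, plasma prekallikrein, a protease precursor of the contact system, with an SD of 0.25. C6 ranged from 7.42 to 9.06 over the 27 livers. Klkb1 was 10.82 in replicate 3 at 0.1 mg/kg and 10.93 in replicate 3 at 1 mg/kg, and 11.37 to 11.93 in the other 25 livers. In kidney the median SD of the 35 was 0.35, against 0.156 over all probe sets. That includes replicate 1 at 1 mg/kg, described below. Without this array the SD went from 1.02 to 0.12 for Fgg and from 0.47 to 0.19 for Vtn. It did not fall for every gene: it went from 0.41 to 0.43 for C6, from 0.62 to 0.65 for F5 and from 0.35 to 0.36 for Serping1. The median SD of the 35 without this array is not given.

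In liver no gene of the 35 passed the threshold at any single dose. At 500 mg/kg 0 of 35 passed, where 0.177% of all probe sets did (limma, 4 against 4 arrays). The signs leaned 1 way: 31 of 35 changes were below 0, with a median of -0.07, while 48.8% of all probe sets were below 0 and their median was 0.00. At an unadjusted p under 0.05 there were 7 lower genes (C5, C8g, F5, Serpind1, Proc, Serpinf2 and Cpb2) and 1 higher (Hrg), or 8 of 35, where 8.99% of all probe sets met that mark. In 9 genes all 4 treated livers lay below all 4 vehicle livers (C5, C8g, C4bpb, F2, Serpind1, Proc, Plg, Serpinf2 and Cpb2), a pattern found in 2.43% of all probe sets. In Hrg all 4 lay above, as in 3.40% of all. The smallest adjusted p of the 35 was 0.33. Without vehicle replicate 2, 30 of 35 were below 0, the median was -0.07 and 0 passed (0.0451% of all). In that fit 5 lower genes met the unadjusted mark (C5, C8g, Serpind1, Serpinf2 and Cpb2; 7.73% of all), and all treated livers lay below the 3 vehicle livers left in 10 genes (3.81% of all) and above them in 1 (4.85%).

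Fewer changes were below 0 at the lower doses. The 300 mg/kg livers had 29 of 35 (median -0.05), the 100 mg/kg livers 27 (median -0.03), the 10 mg/kg livers 21 (median -0.00) and the 0.1 mg/kg livers 19 (median -0.01). Of all probe sets, 51.0% were below 0 at 300 mg/kg, 50.7% at 100, 49.5% at 10 and 50.3% at 0.1 mg/kg. At 1 mg/kg the genes ran the other way, with 25 of 35 above 0 and a median of 0.02. There 48.5% of all probe sets were below 0. Replicate 4 of that dose was the highest of the 27 livers for 10 of the 35 genes (28.6%), as for 4.38% of all probe sets. Vehicle replicate 2 was the highest for 6 (17.1%, against 2.65% of all). Genes read in 1 array share its RNA and its normalization, so their signs are not independent of each other. These comparisons share the same 4 vehicle livers, so they are not independent of each other. None of the 35 passed at any of these doses, against 0.122% of all probe sets at 300 mg/kg and 0% at 100, 10, 1 and 0.1 mg/kg. At an unadjusted p under 0.05 there were 2 lower genes at 300 mg/kg (Mbl1 and F5; 9.83% of all probe sets), 2 lower after 100 mg/kg (the same 2 genes; 6.03%), 0 at 10 mg/kg (5.55%), 2 higher at 1 mg/kg (C1r and Serpind1; 5.04%) and 0 at 0.1 mg/kg (5.10%). For the slope over the 7 dose levels, 0 of 35 passed (0.245% of all), and 31 slopes were negative (49.8% of all). The unadjusted mark was met by 10 slopes, all negative (11.2% of all in either direction). Without vehicle replicate 2 the counts below 0 were 29 at 300 mg/kg, 24 at 100 mg/kg, 16 at 10 mg/kg, 10 at 1 mg/kg and 19 at 0.1 mg/kg, and 29 slopes were negative. None of the 35 passed in those fits (0% of all probe sets at each of these doses and 0.145% in the slope). The shares of all probe sets below 0 in those fits are not given. The unadjusted mark was met by 2 genes at 300 mg/kg (8.99% of all), 1 at 100 mg/kg (5.34%) and 0 at 10 mg/kg (5.29%). It was met by 1 at 1 mg/kg (4.88%), 0 at 0.1 mg/kg (4.65%) and 10 in the slope (10.7%).

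**Figure D2:**
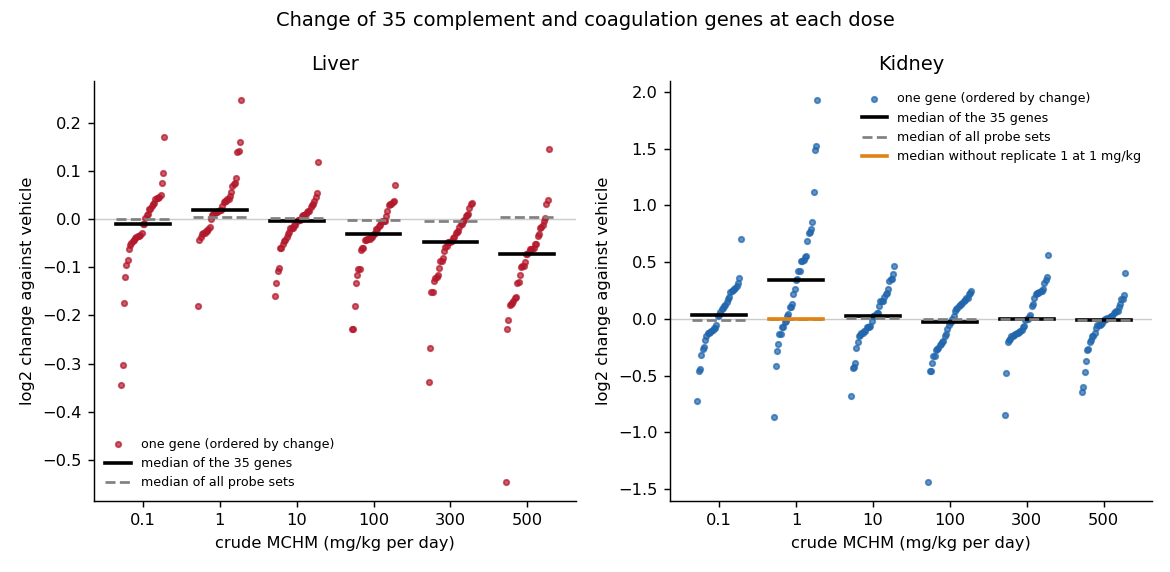
The y axis is the log2 change against vehicle at each dose in liver (left) and kidney (right), points are the 35 genes ordered by change, black bars are their medians and dashed bars the medians of all 31042 probe sets. The liver bar is at 0.02 for 1 mg/kg and at -0.07 for 500 mg/kg, and the kidney bar for 1 mg/kg moves from 0.35 to -0.00 (orange) when 1 array is left out.

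Markers of several other liver cell types were also mostly below vehicle at 500 mg/kg, and 1 of them passed the test. Of 9 stellate cell and fibroblast markers, 9 were below vehicle with a median of -0.37, and their mean level per array spanned 7.02 to 7.52 with vehicle alone and 6.76 to 7.03 after 500 mg/kg. Of 8 macrophage markers, 7 were below with a median of -0.14, and the means were 8.38 to 8.87 and 8.40 to 8.50. Endothelial markers were below vehicle in 6 of 7 (median -0.14) and cholangiocyte markers in 5 of 5 (median -0.25). Of 7 lymphocyte markers, 7 were below, and Jchain, the joining chain of secreted antibody, passed the test (-0.81 ± 0.17 SE, adjusted p = 0.0472). The 12 hepatocyte markers had a median of 0.01 with 7 above 0, and their mean level was 13.24 to 13.37 in vehicle and 13.19 to 13.39 after treatment. These marker values hold vehicle replicate 2, without which 14 rather than 55 probe sets of all were called. The part of these other cells in the lean of the 35 genes was not tested.

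The comparison of the 8 livers at 300 and 500 mg/kg with the 11 livers at 0.1, 1 and 10 mg/kg, which uses no vehicle array, called 1 gene. Serpinf2 fell, where 0.554% of all probe sets were called. The 300 mg/kg livers read 11.17, 11.11, 11.16 and 10.98, and the 500 mg/kg livers 11.14, 10.99, 11.07 and 11.03. Among the lower doses, 0.1 mg/kg gave 11.34, 11.25 and 11.23, 1 mg/kg gave 11.31, 11.31, 11.36 and 11.47, and 10 mg/kg gave 11.15, 11.24, 11.08 and 11.25. The 1 mg/kg group was the highest, and the 10 mg/kg group overlapped the livers at 300 and 500 mg/kg. The change was -0.19 ± 0.04 (SE, limma, adjusted p = 0.0439), or -12.5% on the linear scale. The call is narrow: it was kept in 3 of 19 fits that left out 1 array (without 1 mg/kg replicate 1, 10 mg/kg replicate 3 or 500 mg/kg replicate 1), and the adjusted p ran from 0.0369 to 0.112 over them, with changes of -0.21 to -0.17. With the replicate number as a block Serpinf2 was not called, while with array weights or a second quantile normalization it was. Against vehicle at 500 mg/kg Serpinf2 was at -0.17 ± 0.07 (adjusted p = 0.439).

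The 2 other genes of fibrinolysis stood beside it, and are given with the next genes after their values were seen. Cpb2 encodes the carboxypeptidase that removes plasmin's docking sites from fibrin. Its 8 livers at 300 and 500 mg/kg ran from 12.08 to 12.26 and the 11 at 0.1, 1 and 10 mg/kg from 12.26 to 12.41. The groups did not overlap before rounding, and the change was -0.15 ± 0.04 (adjusted p = 0.0805). Plg, plasminogen, was 13.11 to 13.22 in the 8 and 13.24 to 13.36 in the 11, also without overlap, at -0.12 ± 0.04 (adjusted p = 0.144). Livers at 300 and 500 mg/kg all lay below those at 0.1, 1 and 10 mg/kg in 0.0258% of all probe sets. In this comparison 29 of 35 genes were below 0 with a median of -0.06, while 49.4% of all probe sets were below 0. The unadjusted mark was met by 12 genes, all lower (12.1% of all probe sets in either direction). Serpind1, heparin cofactor II, was at -0.14 ± 0.04 (adjusted p = 0.143) and Masp1, a protease of the lectin route, at -0.23 ± 0.07 (adjusted p = 0.129). The other 2 Masp1 probe sets were at 0.01 and -0.08.

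**Figure D3:**
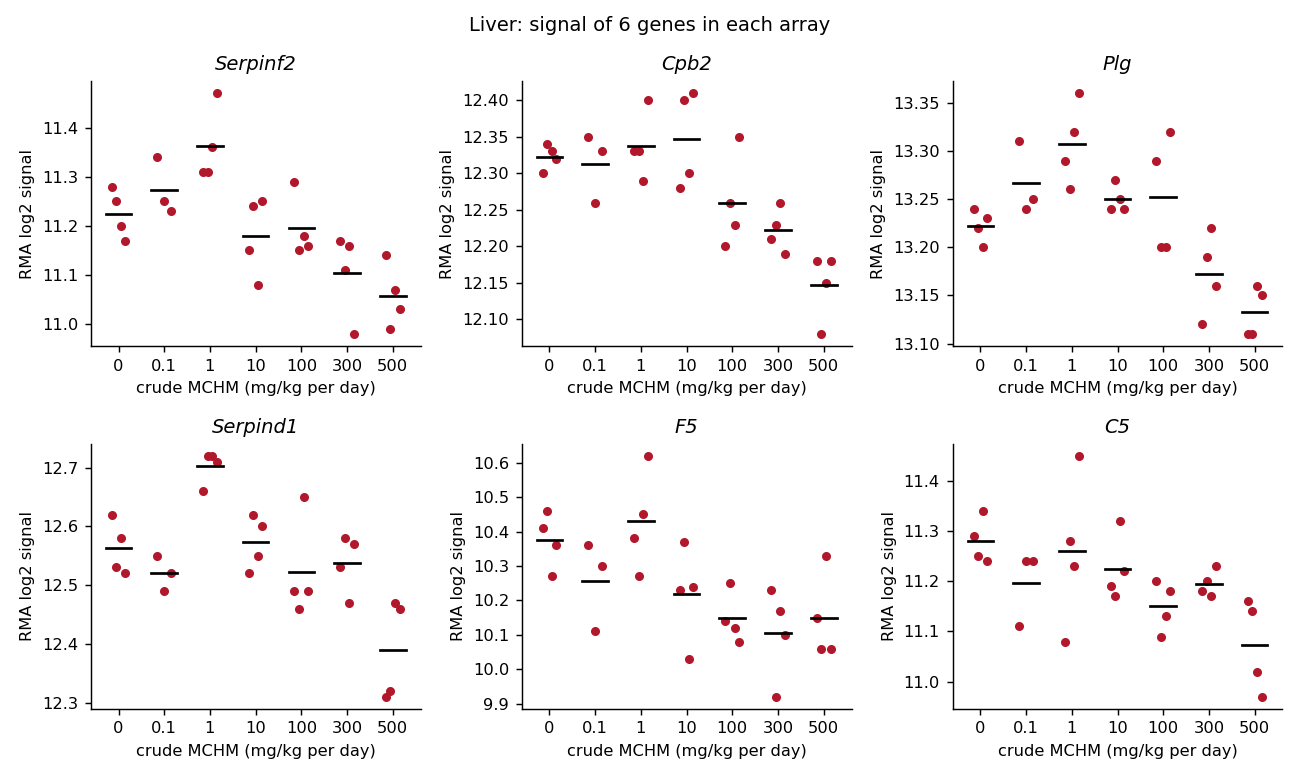
Points are single liver arrays, bars are group means, the x axis is the daily dose and the y axis the RMA log2 signal, on a scale of its own for each gene. Serpinf2, Cpb2 and Plg have their lowest means at 500 mg/kg, and Serpinf2 and Plg their highest at 1 mg/kg.

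By role, the changes at 500 mg/kg in liver were small and mostly negative. The 6 genes of the classical and lectin routes ran from -0.07 to 0.04, with 5 below 0. C3, the central component that all routes cleave, was 14.02, 14.05, 14.02 and 14.06 in vehicle and 14.04, 14.00, 13.99 and 13.98 at 500 mg/kg, a change of -0.03 ± 0.05. Both sets lay near the ceiling of the scale. The 5 complement inhibitors ran from -0.16 to -0.02, all below 0. The 3 fibrinogen chains were at -0.10 (Fga), -0.10 (Fgb) and -0.06 (Fgg). The other Fga probe set, which lies further from the ceiling with a mean of 11.90, was at -0.25 (adjusted p = 0.474), and the other 2 Fgb probe sets were at -0.01 and -0.02. The vitamin K-dependent factors F2, prothrombin, F9 and F10, whose products carry a carboxylation that binds them to membranes, were at -0.07, -0.13 and 0.00. The 5 anticoagulants ran from -0.17 to 0.15 and the 3 genes of fibrinolysis from -0.18 to -0.09.

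The terminal genes held the lowest change of all. C6 was 9.06, 8.21, 7.81 and 8.21 in vehicle livers and 7.87, 7.56, 7.88 and 7.81 at 500 mg/kg. The vehicle values were spread over more than 1 log2 unit, and 2 of the 4 treated livers lay below all of them. The change was -0.54 ± 0.26 (adjusted p = 0.556), and the slope was -0.07 per dose level. Group means at 0.1 to 300 mg/kg were 7.98, 8.37, 8.27, 8.09 and 7.99. C5 was 11.29, 11.25, 11.34 and 11.24 in vehicle livers and 11.16, 11.14, 11.02 and 10.97 at 500 mg/kg. Those groups did not overlap, and the change was -0.21 ± 0.07 (adjusted p = 0.355). C5 means at 0.1 to 300 mg/kg lay between 11.15 and 11.26. The 3 subunits of C8 did not share a sign, with C8g at -0.18, C8b at -0.10 and C8a at 0.03.

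F5, the cofactor that speeds the making of thrombin, was 10.41, 10.46, 10.27 and 10.36 in vehicle livers. After 300 mg/kg it was 10.23, 9.92, 10.17 and 10.10, and after 500 mg/kg 10.15, 10.06, 10.33 and 10.06. All 4 livers at 300 mg/kg were below vehicle, and 3 of 4 were at 500 mg/kg. The changes were -0.27 (adjusted p = 0.288) and -0.23 ± 0.09 (adjusted p = 0.445), and the slope of -0.05 per dose level had an adjusted p of 0.131. Means at 0.1, 1, 10 and 100 mg/kg were 10.26, 10.43, 10.22 and 10.15.

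Hrg, histidine-rich glycoprotein, a heparin-binding plasma protein, was the highest. It was 13.14, 13.02, 12.99 and 13.05 in vehicle livers and 13.19, 13.14, 13.23 and 13.22 at 500 mg/kg, a change of 0.15 ± 0.07 (adjusted p = 0.509). The lowest treated and highest vehicle livers differed by less than the rounding of the values shown. Group means at the 5 lower doses were 13.01 to 13.09. C1r, which with C1s forms the protease core of C1, was at 0.04 and C8a at 0.03, and neither separated from vehicle. C1r means at 0.1 to 300 mg/kg ran from 12.02 to 12.32 and those of C8a from 11.56 to 11.63.

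Genes outside the 42 also had few calls in liver at 500 mg/kg, where 0.177% of all probe sets passed. The share of all probe sets below 0 at that dose is given above. This fit holds vehicle replicate 2, without which 14 rather than 55 probe sets of all were called. Of 20 further complement genes, 16 were below 0 in liver at 500 mg/kg (median -0.08) and 0 passed. Of 30 further genes of coagulation and proteinase inhibition 18 were below 0 (median -0.03), and A2m, the acute-phase proteinase inhibitor alpha-2-macroglobulin, passed (-1.54 ± 0.27, adjusted p = 0.0153). None of 8 genes of the vitamin K cycle and carboxylation passed (5 below 0, median -0.02), nor did any of 24 regulators of hepatocyte transcription and the acute phase (13 below 0, median -0.05).

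In 9 pairs, genes were compared across the 27 livers through their deviations from the dose group mean. The pairs join subunits of 1 protein or complex, except Mbl1 with Mbl2 and Masp1 with Masp2, which encode separate proteins. Fga and Fgg gave r = 0.68 (permutation within dose groups, p = 0.00196, adjusted p over the 9 pairs 0.0176) and rho = 0.62 (p = 0.00385, adjusted p = 0.0347). The pair is next to each other on the chromosome. Without the 2 arrays farthest from the median of Fga, r was 0.41 (permutation p = 0.0979), so in this Fga probe set the relation rests on those arrays, and it was lost when 500 mg/kg replicate 1 or replicate 3 was left out. With the other Fga probe set r was 0.70 (permutation, adjusted p = 0.00432) and 0.60 without 2 arrays (permutation p = 0.00666). Fgb and Fgg gave r = 0.60 (permutation, adjusted p = 0.0536), and 0.57 without 2 arrays. Fga and Fgb gave 0.41, C1r and C1s 0.50, C4bpa and C4bpb 0.41, and C8a and C8b 0.36, with adjusted permutation p from 0.118 to 0.222. Masp1 and Masp2 gave 0.17, Mbl1 and Mbl2 gave 0.00 and C8a and C8g gave -0.06, and these 3 pairs lie on different chromosomes. Without 2 arrays Fga and Fgb gave 0.08, C1r and C1s 0.26, C8a and C8b 0.15, and C4bpa and C4bpb 0.52. With other probe sets Fga and Fgb gave 0.03, Fgb and Fgg 0.06, Mbl1 and Mbl2 0.32, and Masp1 and Masp2 -0.03. The other Fgb probe sets are dim in liver, with means of 4.54 and 3.46. All values of an array share its RNA and its normalization.

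In kidney the array of replicate 1 at 1 mg/kg stood apart in these genes. Fgg was 7.74 there and 2.98 to 3.63 in the other 16 kidneys. Fgb was 7.12 against 3.71 to 4.70, Vtn 6.20 against 3.53 to 4.47, Plg 6.36 against 3.79 to 4.74 and C4bpa 5.34 against 2.92 to 3.89. It was the highest kidney array for 21 of the 35 genes (60.0%), as it was for 6.78% of all probe sets. It was the lowest for F12, factor XII of the contact system, at 4.71 against 5.31 to 6.27. Of 12 hepatocyte markers 7 were above all other kidneys, with Alb at 11.06 against 3.85 to 5.86, and the mean of the 12 was 7.75 against 5.55 to 6.02. Apob, Apoc3, Tat, Hpd and Cyp2e1 were not above the others. The remaining 13 genes were within the range of the others in this array. They include Serpinf2, C5 and Proc, with small differences between the organs, and also Mbl2, C8b, C6 and Klkb1.

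**Figure D4:**
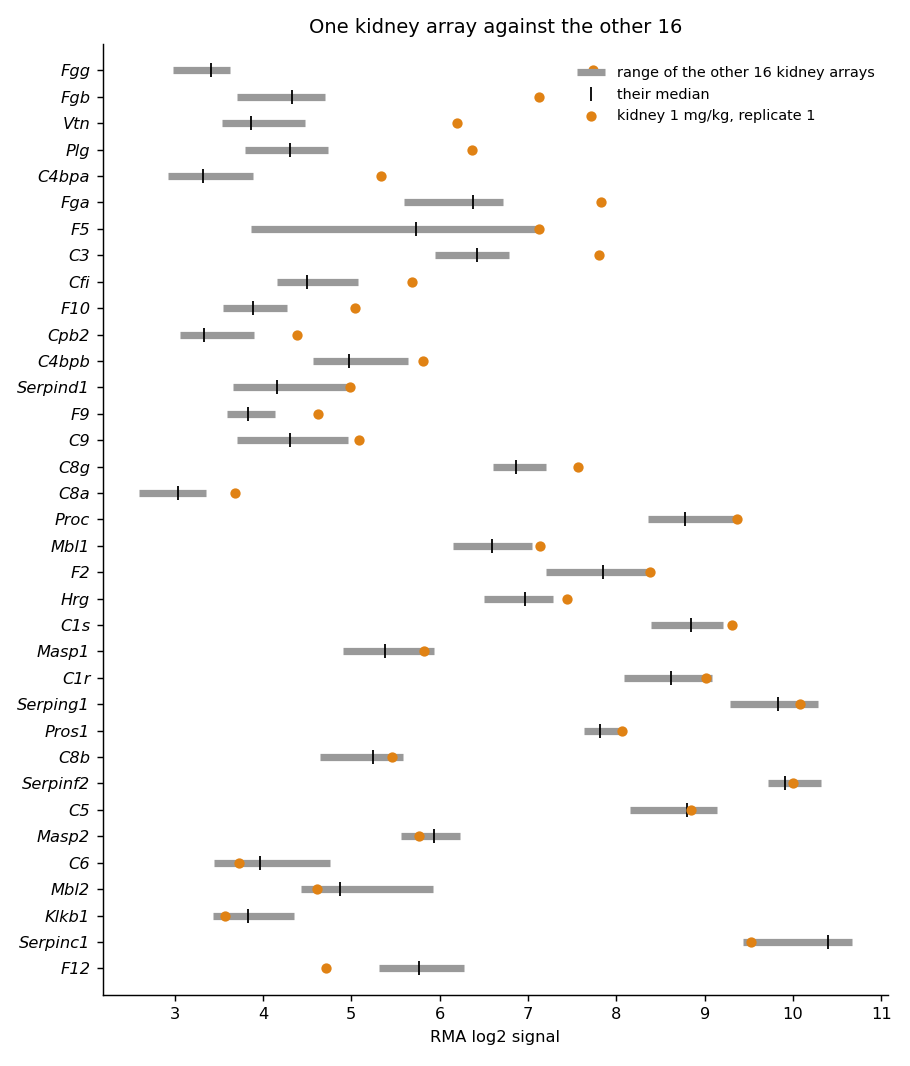
Each row is a gene, the x axis is the RMA log2 signal, grey bars are the range of 16 kidney arrays with their median, and the orange point is kidney replicate 1 at 1 mg/kg. Fgg, Fgb, Vtn and Plg lie far to the right of their bars, and F12 lies to the left.

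Comparisons that hold this array are therefore given with and without it. The other kidney doses against vehicle and the organ fit share a spread that includes the array, and are given only with it. Leaving it out took the SD within dose groups from 0.53 to 0.29 for Plg and from 0.57 to 0.27 for C4bpa. For Proc that SD was 0.24 with and without the array. At 1 mg/kg against vehicle 0 of 35 genes passed (0% of all probe sets), 25 were above 0 and the median was 0.35, and 10 higher and 2 lower met the unadjusted mark (6.98% of all). Replicate 2 of that dose had the highest kidney signals of the fat markers Cfd (8.52) and Adipoq (7.99). Without the array that stood apart, the group is replicate 2 alone, assumed to vary like the other groups. Then 16 were above 0, the median was -0.00 and 2 higher and 4 lower met that mark (4.88% of all). Without vehicle replicate 2 instead, 25 were above 0 and the median was 0.34. For 300 and 500 mg/kg against 0.1, 1 and 10 mg/kg 0 passed (0% of all), the median was -0.14, and 2 higher and 6 lower met the mark (8.22%). Without the array that median was -0.03, with 1 higher and 4 lower (5.77%). Left alone in its group, without replicate 2, the array gave 7 called genes at 1 mg/kg (C4bpa, Vtn, Fgb, Fgg, F10, Plg and Cpb2), where 0.187% of all probe sets were called. In the comparison of higher with lower doses it gave 3 (Vtn, Fgb and Fgg; 0.103% of all). These are calls on 1 array with the spread of the other groups, in genes for which that array stands apart.

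At 500 mg/kg in kidney, 0 of 35 genes passed, nor did any probe set (0%; limma, 3 against 3 arrays). Of the 35 changes 19 were below 0 and the median was -0.01. At an unadjusted p under 0.05 there were 2 lower (C5 and Proc) and 1 higher (Masp2), or 3 of 35, against 10.1% of all probe sets. Those same genes were the ones whose 3 treated kidneys did not overlap vehicle, a pattern found in either direction in 15.8% of all probe sets.

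Proc was 8.73, 9.19 and 9.40 in vehicle kidneys and 8.59, 8.36 and 8.45 at 500 mg/kg. All 3 treated kidneys lay below vehicle and replicate 1 was the lowest vehicle kidney. The change was -0.64 ± 0.18 (SE, adjusted p = 0.36). The 300 mg/kg kidneys were 8.80, 8.39 and 8.69, and the means at 0.1, 1, 10 and 100 mg/kg were 8.99, 9.15, 9.04 and 8.78. The slope over dose levels was -0.11 ± 0.02 per level (unadjusted p = 0.000246, adjusted p = 0.39). In liver the same probe set was at -0.13 ± 0.06 at 500 mg/kg. Liver less kidney, the changes differed by 0.51 ± 0.16 (adjusted p = 0.201).

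C5 was 8.58, 9.14 and 8.92 in vehicle kidneys and 8.54, 8.16 and 8.15 at 500 mg/kg, with replicate 1 again the lowest of the vehicle group. The change was -0.60 ± 0.16 (adjusted p = 0.36), and the means of the other dose groups lay between 8.66 and 8.94. In both organs all arrays at 500 mg/kg lay below all vehicle arrays for C5, and neither change passed the threshold. Masp2, a protease that lectins activate, was 5.97, 5.56 and 5.64 in vehicle and 6.07, 6.08 and 6.23 at 500 mg/kg. All 3 lay above vehicle, at 0.40 ± 0.12 (adjusted p = 0.364), while the other 2 Masp2 probe sets were at 0.30 and 0.15. In liver this probe set read 5.82 with vehicle and the other 2 read 10.84 and 10.74, so it did not show the level in liver that they did. Means of Masp2 in the dose groups between lay from 5.84 to 5.97.

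Calls at 500 mg/kg in kidney came only with array weights or without vehicle replicate 1. Without it the changes were -0.83 for Proc (adjusted p = 0.0237), -0.75 for C5 (0.032) and 0.53 for Masp2 (0.0447), so that 3 of 35 passed, where 1.98% of all probe sets did. With array weights the same 3 passed (1.37% of all). Without vehicle replicate 2, the array with high Xist, they were -0.60, -0.47 and 0.32, each with an adjusted p of 0.891. In that fit 22 of 35 were below 0 and the median was -0.08. Of 8 macrophage markers in kidney, 7 were below vehicle with a median of -0.37, and their mean level was 6.10 to 6.29 in vehicle and 5.72 to 6.07 at 500 mg/kg. Proximal tubule markers had 7 of 8 below, with means of 11.42 to 11.62 and 11.11 to 11.50. Endothelial markers had 6 of 7 below (median -0.27), and markers of the thick limb, distal tubule and collecting duct had 4 of 7 above (median 0.30). The mean of 7 adipocyte markers was 5.10 to 6.95 in vehicle and 5.22 to 7.43 at 500 mg/kg. Of these 7 only Cfd and Adipoq were read array by array, and vehicle replicate 1 was the lowest vehicle kidney for both. There Cfd was 3.52, against 6.81 and 6.89 in replicates 2 and 3, and Adipoq was 5.28, against 6.40 and 6.32. None of these markers passed the threshold, and the part of these lists in the changes was not tested.

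**Figure D5:**
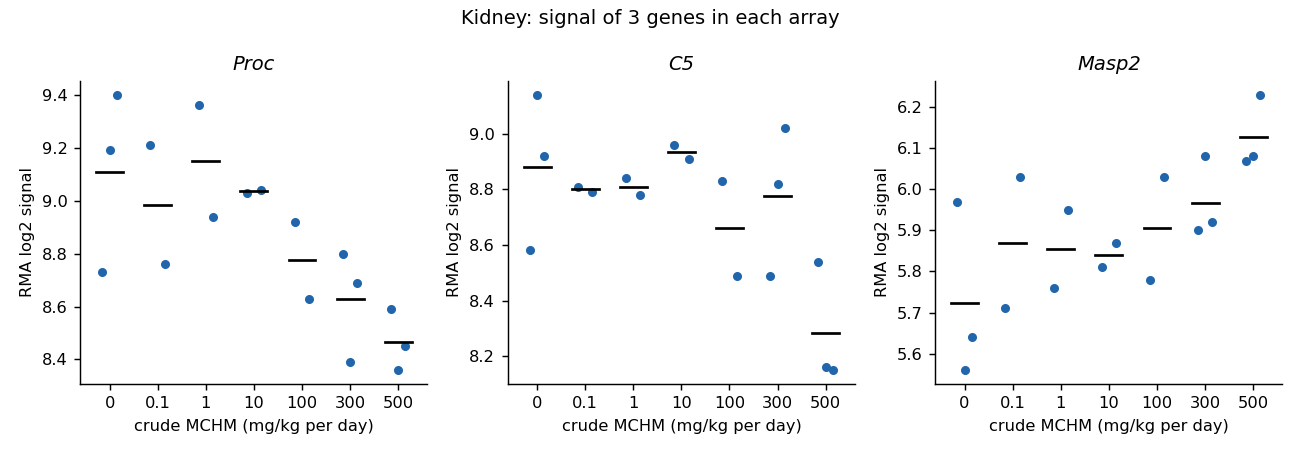
Points are single kidney arrays, bars are group means, the x axis is the daily dose and the y axis the RMA log2 signal, on a scale of its own for each gene. At 500 mg/kg Proc (8.36 to 8.59) and C5 (8.15 to 8.54) lie below and Masp2 (6.07 to 6.23) above every vehicle kidney.

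The other extremes at 500 mg/kg in kidney overlapped vehicle. Plg was 4.73, 4.44 and 4.29 in vehicle and 3.86, 4.37 and 3.82 at 500 mg/kg, a change of -0.47 ± 0.37. Its slope was -0.08 per level, and -0.04 without the 1 mg/kg array that stood apart. F5 was 5.83, 5.80 and 6.41 in vehicle and 5.66, 7.05 and 5.96 at 500 mg/kg, a change of 0.21 ± 0.43, and its kidney values ranged from 3.86 to 7.14 over all doses. Mbl1, mannose-binding lectin A, was 6.67, 6.41 and 6.42 in vehicle and 6.59, 6.61 and 6.83 at 500 mg/kg, a change of 0.18 ± 0.24. Klkb1 had the other leading positive slope, 0.06 ± 0.03 per level (adjusted p = 0.725). Its 3 kidneys at 300 mg/kg were 4.30, 4.27 and 4.33, above the vehicle values of 4.12, 3.97 and 3.71, and at 500 mg/kg they were 3.77, 4.32 and 3.76.

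At the remaining kidney doses 0 of 35 genes and 0% of all probe sets passed at 300, 100, 10 and 0.1 mg/kg and in the slope. At the unadjusted mark there were 2 genes at 300 mg/kg (Klkb1 higher, Proc lower; 3.62% of all probe sets), 1 at 100 mg/kg (F5, 3.95%), 1 at 10 mg/kg (Cpb2, 4.90%), 1 at 0.1 mg/kg (Klkb1, 5.90%) and 3 in the slope (7.10%). The medians at those 4 doses were -0.00, -0.03, 0.02 and 0.03. Without vehicle replicate 2 they were 0.02, -0.09, -0.03 and 0.06, and 0 passed (0% of all). Of the 35 slopes 24 were negative, with a median of -0.02 and 1 higher and 2 lower at the unadjusted mark. Without the 1 mg/kg array that stood apart 21 were negative, with a median of -0.01. Then 1 higher and 3 lower met the mark (6.92% of all). Without vehicle replicate 2, 28 were negative, with a median of -0.03 and again 1 higher and 3 lower (5.13% of all).

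The organs' responses were compared directly in 1 fit of all 44 arrays. For the difference between the changes at 500 mg/kg 0 of 35 genes passed, where 0.0290% of all probe sets did, and 2 genes met the unadjusted mark (C5 and Proc; 9.91% of all). At 300 mg/kg 0 passed (0% of all) and 3 met it (Masp2, Serpinc1 and Proc; 6.32%). A p above the threshold does not show that the organs responded alike: the 95% interval for Proc at 500 mg/kg was 0.18 to 0.84 and that for C5 0.07 to 0.71.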

How the data were processed

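The deposited table holds log2 expression values of 44 arrays, made by the authors with RMA (background correction, quantile normalization and summary of probes), per the submitters' processing notes. The sources used here give neither the RMA version nor whether the organs were normalized together. Tests covered 31042 probe sets, without the 57 controls; 20826 have 1 gene symbol, 436 several and 9780 none, and 20758 matched a RefSeq rat gene (GRCr8) by gene ID. No scanner data were used, so no background calls were made, and the number of arrays limits the precision.

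Each array was grouped by its title. limma 3.58.1 (R 4.3.3) fitted the 7 dose groups of an organ together with lmFit and eBayes, two-sided, with Benjamini-Hochberg adjustment over all 31042 probe sets and a threshold of 0.05; organ differences came from 1 fit of all 44 arrays. Every adjusted p is limma's unless it is called a permutation p (100000 resamples within dose groups). The fitting was tested on simulated data. The genes and lists were chosen with earlier results of these data known.

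All 35 genes are described by role. Values in every group were to be given for genes past the threshold and for the extremes of each organ. The extremes are the 3 highest and 3 lowest changes at 500 mg/kg and the 2 highest and 2 lowest slopes. For several of these genes only some groups, or means or ranges of groups, are printed. Vehicle levels were to be given for the 5 highest, the 5 lowest and the 5 smallest organ differences. The highest and lowest are not printed, since levels of different probe sets are not compared. Genes of other lists are named if past the threshold. Alternatives were a filter on dim probe sets, a second quantile normalization, an intensity trend with a robust prior, array weights, any probe set of a gene, a replicate block, only the groups compared, other slopes, and leaving out each array. The fits without kidney 1 mg/kg replicate 1, and the counts without vehicle replicate 2, were chosen after seeing the data.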

Additional observations from a re-analysis of the deposited data

Results flagged for a closer look

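Klkb1 in liver at 500 mg/kg was 11.84 in replicate 3, while the other 3 livers of the group were at 11.37 to 11.44; the gap was 0.853 of the whole range of the group, above Dixon's critical value for 4 arrays. The 12 genes chosen for values in every group were examined in this way in 72 liver groups. Chance alone flags about 1 in 20 groups, so a single such array is within what that rate gives.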

How the results depend on the processing

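The median change of the 35 genes kept its sign in liver at 500 mg/kg under every alternative run, and 35 of 35 remained called between vehicle liver and vehicle kidney in each fit that left out an array. Counts of called genes moved in a few settings. For liver at 300 and 500 against 0.1, 1 and 10 mg/kg (1 gene; 0.554% of all probe sets), a filter to the brighter probe sets gave 4 (2.94%), a second quantile normalization 2 (0.715%), and an intensity trend with a robust prior 6 (1.15%). The fit with the replicate block gave 0, with Serpinf2 at an adjusted p of 0.0579; leaving out 1 array gave 0 to 1. For the liver slope (0 genes), the filter, the trend prior and a slope over mg/kg each gave 2 (Serpinf2 and Cpb2; 1.36%, 0.538% and 1.16% of all), and for liver at 500 mg/kg the trend prior gave 1 (Cpb2; 0.438%). In kidney, array weights gave 3 at 500 mg/kg (1.37%) and 1 in the organ difference there (3.06%). Leaving out 1 array gave 0 to 7 at kidney 1 mg/kg (0.187% of all without replicate 2), 0 to 3 at kidney 500 mg/kg (1.98% without vehicle replicate 1), 0 to 3 in kidney higher against lower doses (0.103% without 1 mg/kg replicate 2), 0 to 1 and 0 to 2 in the organ difference at 500 and 300 mg/kg, and 0 to 3 subunit pairs (0 without 500 mg/kg replicate 1 or 3). The cause was not tested. Arrays with the same replicate number did not deviate together (mean r of 0.02 in liver and 0.01 in kidney, some negative), so the number was not taken as a pairing; the block changed no other call. Compression near the top of the scale limits what the liver signals of Fga, Fgb, Fgg and C3 can show.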
